A study of Mus musculus with 12 samples.

Results

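The genes described here carry iron and heme through spinal cord white matter. They are 10 genes chosen by symbol for their known roles: Trf (transferrin), Tfrc (transferrin receptor), Slc11a1 and Slc11a2 (divalent metal transporters), Fth1 and Ftl1 (heavy and light chains of ferritin), Slc40a1 (ferroportin), Cp (ceruloplasmin), Hmox1 (heme oxygenase) and Hpx (hemopexin). The choice was made with earlier results of these data known. All 10 were found among the 46078 gene identifiers of the count table. Of them, 9 passed the filter on low counts that left 15866 genes to test, and Hpx did not. The tissue was ventrolateral spinal cord white matter of C57Bl6 mice, cut from stained sections by laser capture. There were 4 groups of 3 libraries each, young and middle-aged mice with a lesion (injured) and without one (naïve). Per the study's methods the young mice of this experiment were 6 weeks old and the middle-aged mice 8 months old, while the labels state no age in numbers. Injured mice had received lysolecithin, a lipid that strips myelin, 72 h before the tissue was taken, and naïve mice had no lesion. Each library was made from the pooled RNA of 5 mice, so the spread between mice within a pool was not measured.

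Iron enters cells bound to transferrin, which the transferrin receptor carries into an acidic compartment, where a divalent metal transporter moves the iron into the cytosol. Ferritin, a shell of heavy and light chains, stores it. Ferroportin is the known exporter of cellular iron, and ceruloplasmin is a copper enzyme that oxidises the exported iron so that transferrin can bind it. Heme, freed from red cells or from dying cells, is bound outside cells by hemopexin and is opened by heme oxygenase, which releases its iron. In white matter, oligodendrocytes are rich in iron and in ferritin, and macrophages that clear debris take in and recycle iron and heme. Much of this system is controlled after transcription: iron regulatory proteins bind a short RNA hairpin, the iron-responsive element, in the untranslated regions (UTRs) of several of these mRNAs. Bound before the coding sequence, they hold back translation; bound after it, they protect the mRNA from decay. RNA levels therefore show only part of the control of these proteins.

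The hairpin was searched for as a C, any 5 bases, the loop CAGTGN and 5 bases that pair with the 5 before the loop, with G-T pairs allowed, on the transcribed strand of the annotated UTRs (GENCODE models on GRCm38). In 5′ UTRs it was found in 31 of 20916 genes (0.148%) and in 3 of the 10 genes described here. In 3′ UTRs it was found in 129 of 21045 genes (0.613%) and in 1 of the 10. These matches are shown because they separate the genes by where the element lies. They are stretches of 30 bases, with the loop in capitals.
Fth1, 5′ UTR, chr19:9982732-9982761, plus strand: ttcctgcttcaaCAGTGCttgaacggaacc
Ftl1, 5′ UTR, chr7:45459778-45459807, minus strand: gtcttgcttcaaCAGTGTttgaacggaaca
Slc40a1, 5′ UTR, chr1:45925464-45925493, minus strand: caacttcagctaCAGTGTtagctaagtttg
Tfrc, 3′ UTR, chr16:32631219-32631248, plus strand: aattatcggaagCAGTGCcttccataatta
Tfrc, 3′ UTR, chr16:32631598-32631627, plus strand: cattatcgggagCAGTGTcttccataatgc
Tfrc, 3′ UTR, chr16:32631663-32631692, plus strand: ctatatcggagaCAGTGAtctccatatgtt
Tfrc, 3′ UTR, chr16:32631710-32631739, plus strand: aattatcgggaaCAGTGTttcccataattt
Both ferritin genes and Slc40a1 carried the match before the coding sequence, and Tfrc carried it 4 times after it. No match to these letters was found in the annotated UTRs of the other 6 genes. A hairpin with a mismatch or an extra base within the 5 pairs would be missed. The search therefore does not show that these 6 genes lack the element.

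The counts of each pool were scaled by the TMM method of edgeR, which trims extreme genes before it compares libraries, and are given as CPM, the count relative to the scaled library total. All 12 pools were tested in 1 model with edgeR's quasi-likelihood test, and every adjusted p below comes from it, with Benjamini-Hochberg adjustment over all 15866 genes and a threshold of 0.05. A value after ± is an SD over 3 pools, and SE is the standard error of a log2 fold change. Totals ran from 9834447 to 12807437 counts per pool, and the floor of detection, 3 counts, lay between 0.220 and 0.323 CPM. Reads were amplified, so counting error alone understates the error of low counts. Mitochondrial genes took 8.12% to 15.97% of the counts. The summed level of 6 myeloid markers (Itgam, Csf1r, Aif1, Cd68, Ptprc and Tyrobp) was 71.8 to 102 CPM in young naïve, 110 to 147 in middle-aged naïve, 1373 to 1394 in young injured and 1461 to 1950 CPM in middle-aged injured pools. The summed level of 6 oligodendrocyte markers moved the other way, from 86699 to 101953 CPM in young naïve and 53009 to 60301 in middle-aged naïve pools to 18251 to 20256 in young injured and 7930 to 12447 in middle-aged injured pools. In bulk tissue, fewer cells of a type and less RNA per cell cannot be told apart. The part of either shift in the results below was not tested.

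With injury in young mice, 4 of the 9 tested genes rose (Hmox1, Slc11a1, Ftl1 and Cp), where 28.3% of all tested genes did, and 2 fell (Fth1 and Tfrc), where 26.3% of all did. In middle-aged mice the same 4 genes rose, against a background of 29.2%, and Fth1 alone fell, against 29.3%. The median log2 fold change of the 9 genes was 0.31 in young and 0.35 in middle-aged mice, beside 0.0005 and -0.03 over all tested genes. Given how many genes moved with injury, these shares are not far from those of the whole transcriptome; the sizes of the changes and their directions differed widely between the genes. Between ages, 3 of the 9 genes were higher in middle-aged than in young naïve mice (Ftl1, Slc11a1 and Cp), where 2.02% of all tested genes were higher, and 0 were lower, where 1.78% were. In injured mice 0 of the 9 differed between ages, with 1.15% of all tested genes called in either direction; at an unadjusted p under 0.05 there were 2. For 0 of the 9 did the effect of injury differ between ages by edgeR's interaction test, with 0.139% of all tested genes called; at an unadjusted p under 0.05 there were 3.

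**Figure D1:**
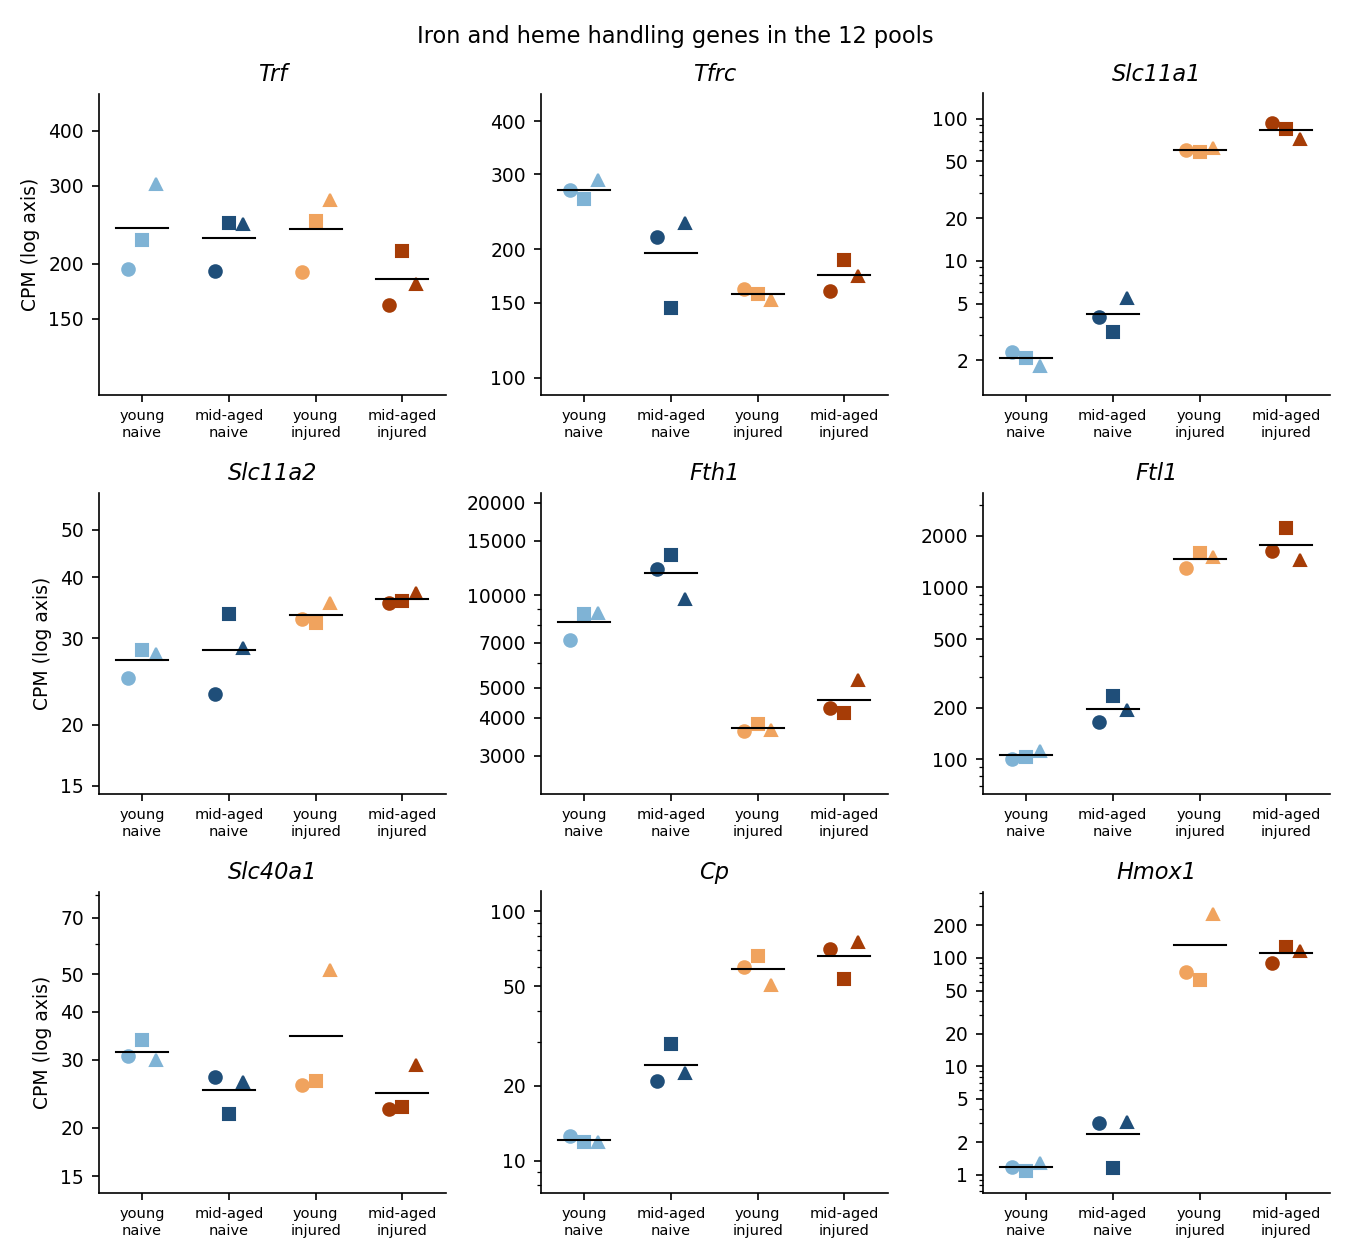
TMM-scaled CPM (log axis, own range in each panel) of the 9 genes that passed the filter, in each of the 12 pools; circles, squares and triangles are replicates 1, 2 and 3 of a group and lines are group means. The injured pools sit above the naïve pools for Slc11a1, Ftl1, Cp and Hmox1 and below them for Fth1, and young injured replicate 3 stands above the rest of its group for Hmox1 (256.7 CPM) and Slc40a1 (51.1 CPM).

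Uptake of transferrin-bound iron rests on Trf and Tfrc. Trf, made in white matter mainly by oligodendrocytes, lies on the minus strand of chromosome 9 from 103204001 to 103230444 (GRCm38). It stood at 195, 226 and 304 CPM in young naïve pools, 193, 248 and 246 in middle-aged naïve, 192, 250 and 278 in young injured and 162, 214 and 179.9 in middle-aged injured pools. All 4 groups overlapped. The log2 fold change with injury was -0.01 (SE 0.18, edgeR adjusted p = 0.973) in young mice and -0.30 (SE 0.18, adjusted p = 0.163) in middle-aged mice. The 95% interval of the young value ran from -0.36 to 0.35 and that of the middle-aged value from -0.66 to 0.05. In the same pools the sum of oligodendrocyte markers was far lower after injury, as given above. Of the 31-base stretches in Trf transcripts, 63.9% also occur in transcripts of other genes, mostly those of Gm20425. This annotated gene on the same strand overlaps Trf and had 0 to 1 counts per pool. How the authors' counting treated shared reads is not given in the sources used here. Whether Trf reads were lost to the overlap was not tested, so the Trf levels may be affected.

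Tfrc, the receptor that brings transferrin into the cell, lies on the plus strand of chromosome 16 from 32608920 to 32632794. Its level was 275, 262 and 290.4 CPM in young naïve pools and 162, 157 and 152 in young injured pools, so the groups were well apart. In middle-aged mice it was 213, 146 and 230.4 CPM in naïve and 159.7, 188 and 173 in injured pools, and these groups overlapped. Tfrc fell with injury in young mice, with a log2 fold change of -0.81 (SE 0.15, edgeR adjusted p = 0.000264). In middle-aged mice the log2 fold change was -0.18 (SE 0.14, adjusted p = 0.307). The effects of injury differed by 0.64 on the log2 scale between ages (SE 0.20), which did not pass the interaction test (edgeR adjusted p = 0.259). The middle-aged value rested on naïve replicate 2, the lowest naïve pool: without it, the log2 fold change was -0.35 and passed the test (edgeR adjusted p = 0.0108). Among naïve mice Tfrc was lower in every middle-aged than in every young pool, by 0.49 on the log2 scale (SE 0.14), and this difference missed the threshold (edgeR adjusted p = 0.0814); it passed without middle-aged naïve replicate 3 (-0.62, adjusted p = 0.0369) and with DESeq2 (-0.49, adjusted p = 0.0342). In order of mean level the groups ran from young naïve (276 ± 14.1 CPM) to middle-aged naïve (196 ± 44.7), middle-aged injured (174 ± 14.3) and young injured (157 ± 4.69). Of these neighbours, the middle-aged injured group overlapped the groups on either side of it.

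The metal transporters Slc11a1 and Slc11a2 are close relatives with different homes. Slc11a1, also called NRAMP1, sits in the phagosomes of macrophages and pumps metal ions out of them; it lies on the plus strand of chromosome 1 from 74375195 to 74386062. It stood at 2.28, 2.08 and 1.83 CPM in young naïve pools, 4.03, 3.15 and 5.44 in middle-aged naïve, 59.8, 58.1 and 62.4 in young injured and 93.97, 84.1 and 72.3 in middle-aged injured pools. Every injured pool exceeded every naïve pool, and the 4 groups did not overlap. The log2 fold change with injury was 4.85 (SE 0.21, edgeR adjusted p = 2.91e-10) in young and 4.29 (SE 0.19, adjusted p = 4.39e-10) in middle-aged mice. Naïve middle-aged pools held more Slc11a1 than naïve young pools, with a log2 fold change of 1.03 (SE 0.22, edgeR adjusted p = 0.0221). That call rested on 17 to 68 counts per pool, and it was lost when only the naïve pools entered the model (edgeR adjusted p = 0.356) or when any of young naïve replicates 1, 2 and 3 or middle-aged naïve replicate 3 was left out, with Slc11a1 then at 0.79 to 1.11 on the log2 scale (adjusted p = 0.051 to 0.0794). In injured mice the difference between ages was 0.47 on the log2 scale (SE 0.16) and did not pass (edgeR adjusted p = 0.231), although the pools did not overlap.

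Slc11a2, also called DMT1, moves iron out of the transferrin compartment in most cells; it lies on the minus strand of chromosome 15 from 100387898 to 100425072. Its level was 25.0, 28.4 and 27.8 CPM in young naïve, 23.1, 33.6 and 28.6 in middle-aged naïve, 32.8, 32.2 and 35.4 in young injured and 35.4, 35.8 and 37.2 in middle-aged injured pools. Within each age the injured pools lay above the naïve pools, by a small margin. The log2 fold change was 0.31 (SE 0.15, edgeR adjusted p = 0.0928) in young and 0.35 (SE 0.15, adjusted p = 0.0574) in middle-aged mice, so neither passed the threshold. Without middle-aged naïve replicate 2 both passed, with log2 fold changes of 0.31 (edgeR adjusted p = 0.043) and 0.48 (adjusted p = 0.00809); under library totals alone both passed too, and with DESeq2 the middle-aged value did (adjusted p = 0.035). Slc11a2 overlaps Gm5475 on the other strand, which had 0 to 4 counts per pool.

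The count of Slc11a1 per count of Slc11a2 in the same pool does not depend on how libraries are scaled. It was 0.091, 0.074 and 0.066 in young naïve pools and 0.174, 0.094 and 0.190 in middle-aged naïve pools. After injury it was 1.82, 1.80 and 1.76 in young and 2.65, 2.35 and 1.94 in middle-aged mice, so the phagosomal transporter had overtaken its relative in every injured pool. The ratio was 18.96-fold higher after injury over both ages, and a 2-sided exact permutation test within both ages gave p = 0.005, the smallest of 400 arrangements (Benjamini-Hochberg adjusted p = 0.01 over 4 ratios). Within 1 age alone, 3 pools against 3 cannot go below p = 0.1 by the exact test, and both ages gave that value. Slc11a1 alone already set every injured pool above every naïve pool, so these exact p-values mostly restate that separation.

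Ferritin stores iron in a shell whose heavy chain oxidises iron and whose light chain helps to lay down the mineral core. Fth1, the heavy chain, lies on the plus strand of chromosome 19 from 9980598 to 9985098 and was by far the most abundant of the 10 genes in naïve tissue. Fth1 stood at 7125, 8668 and 8775 CPM in young naïve, 12202, 13476 and 9746 in middle-aged naïve, 3617, 3803 and 3644 in young injured and 4284, 4129 and 5279 in middle-aged injured pools. The injured pools were below all naïve pools, and the 4 groups did not overlap. Fth1 fell with injury by 1.15 on the log2 scale (SE 0.14, edgeR adjusted p = 9.33e-06) in young mice and by 1.37 (SE 0.14, adjusted p = 1.49e-06) in middle-aged mice.

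Ftl1, the light chain, lies on the minus strand of chromosome 7 from 45457944 to 45459884, and it went the other way. Ftl1 stood at 101, 104 and 112 CPM in young naïve, 164, 235 and 193 in middle-aged naïve, 1299, 1587 and 1506 in young injured and 1628, 2222 and 1450.1 in middle-aged injured pools. Every injured pool held far more Ftl1 than every naïve pool. Its log2 fold change with injury was 3.79 (SE 0.18, edgeR adjusted p = 8.2e-10) in young and 3.16 (SE 0.18, adjusted p = 3.1e-09) in middle-aged mice. Naïve middle-aged pools held 1.87-fold more Ftl1 than naïve young pools (log2 fold change 0.90, SE 0.17, edgeR adjusted p = 0.00818). After injury the ages overlapped, with a log2 difference of 0.27 (SE 0.16, adjusted p = 0.71). Fth1 pointed the same way in naïve mice, higher in each middle-aged pool by 0.53 on the log2 scale (SE 0.14), just outside the threshold (edgeR adjusted p = 0.0534). The Fth1 difference passed with DESeq2 (adjusted p = 0.00972), with library totals alone (edgeR adjusted p = 0.0367) and without replicate 3 of the middle-aged naïve (adjusted p = 0.0229) or middle-aged injured group (adjusted p = 0.0461).

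The balance of the ferritin chains can be read within each pool. The count of Fth1 per count of Ftl1 was 70.5, 83.5 and 78.2 in young naïve and 74.4, 57.4 and 50.6 in middle-aged naïve pools. After injury it was 2.79, 2.40 and 2.42 in young and 2.63, 1.86 and 3.64 in middle-aged pools. The raw count of the heavy chain, not scaled for transcript length, thus exceeded that of the light chain in every pool, and by far less after injury. Over both ages the ratio was 26.5-fold lower in injured pools. A 2-sided exact permutation test within both ages gave p = 0.005, the smallest of 400 arrangements (Benjamini-Hochberg adjusted p = 0.01 over 4 ratios). With Fth1 lower and Ftl1 higher in every injured pool, the ratio had to separate. This p therefore adds no support beyond the tests of the single genes. Per kilobase of annotated exon, the mean level in young mice was 2361 ± 266 CPM per kilobase for Fth1 against 78.9 ± 4.34 for Ftl1 in naïve tissue, and 1063 ± 28.9 against 1092 ± 111 in injured tissue. In middle-aged mice the levels were 3404 ± 547 CPM per kilobase for Fth1 and 147 ± 26.6 for Ftl1 in naïve tissue, and 1316 ± 179.9 and 1319 ± 302 in injured tissue. On that scale the chains were about level after injury. The scale divides by all annotated exon bases, 3469 over 9 transcripts for Fth1 and 1340 over 6 for Ftl1. Which transcripts were present was not measured, so the near equality depends on these lengths. Both mRNAs carry the hairpin shown above in the 5′ UTR, so RNA levels do not give the ratio of the proteins. The light chain is also hard to count: 64.1% of the 31-base stretches in Ftl1 transcripts occur in transcripts of other genes, 33 in all and mostly copies such as Ftl1-ps1. The 4 listed copies of Ftl1 together had 2 to 8 counts per naïve pool and 20 to 37 per injured pool, beside 1044 or more counts of Ftl1 itself, and how the authors' counting treated shared reads is not given in the sources used here. For Fth1 the shared part was 3.24%.

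**Figure D2:**
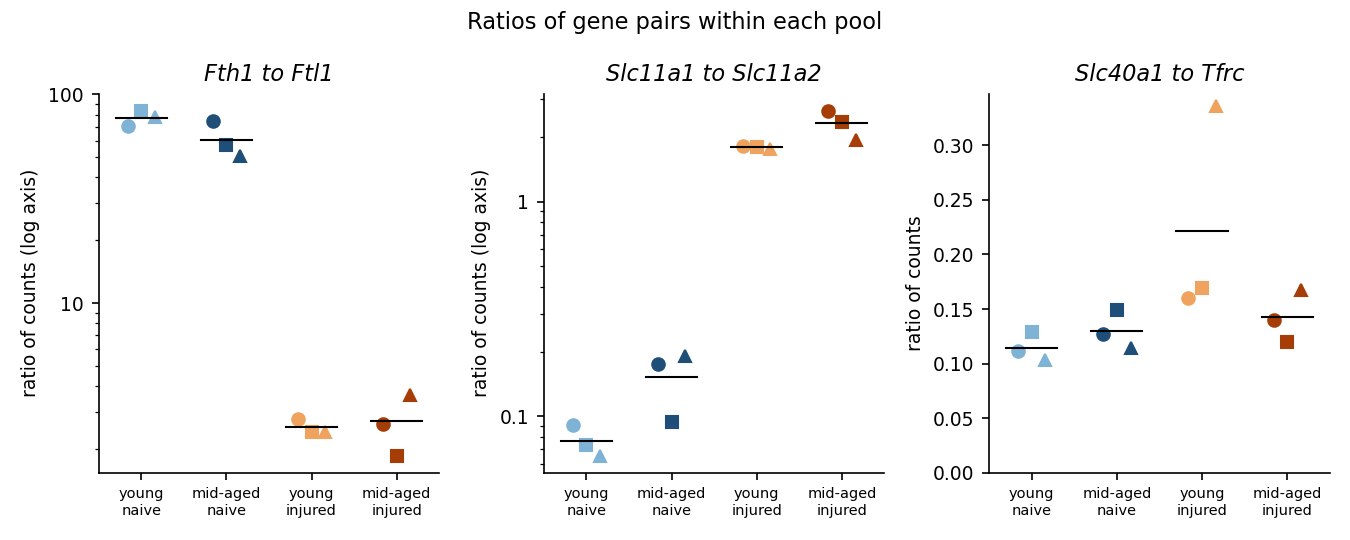
Ratio of the raw counts of 2 genes within each pool, for Fth1 to Ftl1 and Slc11a1 to Slc11a2 (log axes) and Slc40a1 to Tfrc (linear axis from 0); circles, squares and triangles are replicates 1, 2 and 3 and lines are group means. Naïve and injured pools are widely apart in the left and middle panels, and in the right panel they overlap in middle-aged mice, with young injured replicate 3 (0.336) alone at the top.

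Export of iron needs ferroportin, encoded by Slc40a1, and a ferroxidase such as ceruloplasmin, encoded by Cp. Slc40a1 lies on the minus strand of chromosome 1 from 45908068 to 45926523. Its level was 30.7, 33.7 and 30.0 CPM in young naïve, 27.1, 21.7 and 26.3 in middle-aged naïve, 25.8, 26.5 and 51.1 in young injured and 22.3, 22.6 and 29.0 in middle-aged injured pools. Naïve and injured pools overlapped at both ages. The log2 fold change with injury was 0.13 (SE 0.23, edgeR adjusted p = 0.656) in young and -0.02 (SE 0.23, adjusted p = 0.937) in middle-aged mice. The young value rested on replicate 3 of the injured group: without it, the log2 fold change of Slc40a1 was -0.27 (edgeR adjusted p = 0.246). The ratio of Slc40a1 to Tfrc, the outward against the inward route, was 0.112, 0.129 and 0.103 in young naïve, 0.127, 0.149 and 0.114 in middle-aged naïve, 0.160, 0.169 and 0.336 in young injured and 0.140, 0.120 and 0.168 in middle-aged injured pools. Over both ages it was 1.41-fold higher after injury (2-sided exact permutation test, p = 0.03; Benjamini-Hochberg adjusted p = 0.04 over 4 ratios). The increase was 0.87 (log2) in young mice and 0.13 (log2) in the middle-aged, and the test over both ages lost its call when any 1 of 6 pools was left out, young injured replicate 3 among them (p = 0.055 by the exact test).

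Cp, which astrocytes make in the central nervous system as a form anchored to the cell surface, lies on the plus strand of chromosome 3 from 19957054 to 20009145. It stood at 12.6, 11.97 and 11.94 CPM in young naïve, 20.9, 29.5 and 22.5 in middle-aged naïve, 59.8, 66.2 and 50.8 in young injured and 70.4, 53.7 and 75.0 in middle-aged injured pools. All injured pools were above all naïve pools, and middle-aged naïve above young naïve pools. Cp rose with injury by a log2 fold change of 2.28 (SE 0.18, edgeR adjusted p = 9.99e-08) in young and 1.45 (SE 0.17, adjusted p = 4.84e-06) in middle-aged mice. The difference of -0.82 between these effects (SE 0.24) did not pass the interaction test (edgeR adjusted p = 0.208). In naïve mice Cp was 2.0-fold higher at the older age (log2 fold change 0.996, SE 0.18, edgeR adjusted p = 0.00645), and with the injured pools left out of the model this missed the threshold (edgeR adjusted p = 0.095). After injury the ages overlapped, with a log2 difference of 0.17 (SE 0.16, adjusted p = 0.922). The summed level of 5 astrocyte markers moved against Cp, from 8326 to 10484 CPM in naïve pools to 3267 to 5138 CPM in injured pools. Gfap and Aqp4 gave most of that sum. Of the 5 markers, 4 were called lower at each age, where 26.3% of all tested genes were in young and 29.3% in middle-aged mice. Aldh1l1 overlapped, at 37.9 to 51.5 CPM in naïve and 31.1 to 51.2 in injured pools. Cp overlaps Hps3 on the other strand, which had 309 to 914 counts per pool, and whether the counting used strand is not given in the sources used here.

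Heme handling outside and inside cells was represented by Hpx and Hmox1. Hpx, which binds free heme in plasma, lies on the minus strand of chromosome 7 from 105591613 to 105600137. It had 0, 1 and 5 counts in young naïve, 1, 0 and 1 in middle-aged naïve, 0, 0 and 4 in young injured and 3, 0 and 6 in middle-aged injured pools. No group stayed above the floor of 3 counts, and no difference in Hpx could be detected at this depth. The ratio of Hpx to Cp rests on these few counts and gave p = 0.11 by the exact permutation test over both ages (Benjamini-Hochberg adjusted p = 0.11 over 4 ratios).

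Hmox1, the inducible enzyme that opens heme, lies on the plus strand of chromosome 8 from 75093621 to 75100589, and it had the largest fold change of the 9 genes. Hmox1 stood at 1.18, 1.09 and 1.29 CPM in young naïve pools, on 12 or 13 counts each, and at 2.98, 1.15 and 3.04 in middle-aged naïve pools. In injured pools it stood at 73.5, 62.3 and 256.7 CPM in young and 89.8, 125.7 and 115.7 CPM in middle-aged mice. Every injured pool was far above every naïve pool, while the ages overlapped in both naïve and injured tissue. The log2 fold change with injury was 6.78 (SE 0.59, edgeR adjusted p = 2.8e-07) in young and 5.50 (SE 0.53, adjusted p = 7.26e-07) in middle-aged mice. The group means of the injured mice were 131 ± 109 CPM in young and 110 ± 18.5 in middle-aged mice, the wide SD being that of a single pool. Hmox1 shares none of its 31-base stretches with another gene.

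Young injured replicate 3 stood apart for Hmox1. It held 3.78-fold the mean level of the other 2 pools of its group. Of the 15866 tested genes, 3 (0.0189%) had a larger log2 excess in that pool. Without it, the log2 fold change of Hmox1 with injury in young mice was 5.83 (edgeR adjusted p = 9.27e-09), and the difference between ages in injured mice went from -0.25 (SE 0.40, adjusted p = 0.987) to 0.71 (adjusted p = 0.393). Slc40a1, which exports the iron that heme oxygenase frees, was 1.95-fold the mean of the other 2 pools there, with 95 genes (0.599%) in larger excess. The other genes did not share this: Ftl1, Fth1, Slc11a1, Slc11a2, Tfrc and Cp of that pool lay between -0.31 and 0.12 on the log2 scale from the mean of the other 2, and Trf at 0.34. The myeloid marker sum was 1394 CPM in that pool against 1373 and 1388 in the other 2. Other markers stood apart there: the 4 fibroblast and meningeal markers summed to 634 CPM against 1025 and 967. The endothelial markers Cdh5, Cldn5, Pecam1 and Flt1 were at 0.661, 0.674, 0.733 and 0.908 of the mean of the other 2. The monocyte marker Ccr2 was at 0.663 of it, with Ly6c2, Plac8, Lyz2 and Ms4a7 at 0.841 to 0.972. The neuronal markers were split, with Slc17a6 at 2.22, Snap25 at 1.40, Rbfox3 at 1.18 and Syt1 at 0.796. The mitochondrial share was 8.17% in that pool against 9.99% and 10.85%. The part of these in the Hmox1 and Slc40a1 values was not tested. Markers of red blood cells, the main store of heme, summed to 1.43 CPM there against 1.98 and 0.85, with Hbb-bs at 10 counts against 12 and 7. In middle-aged injured replicate 3 these markers summed to 11.4 CPM, nearly all from 127 counts of Hba-a1, and Hmox1 there (115.7 CPM) lay between the other pools of its group. These sums are of RNA and do not measure heme. The part of blood in the Hmox1 values was not tested.

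**Figure D3:**
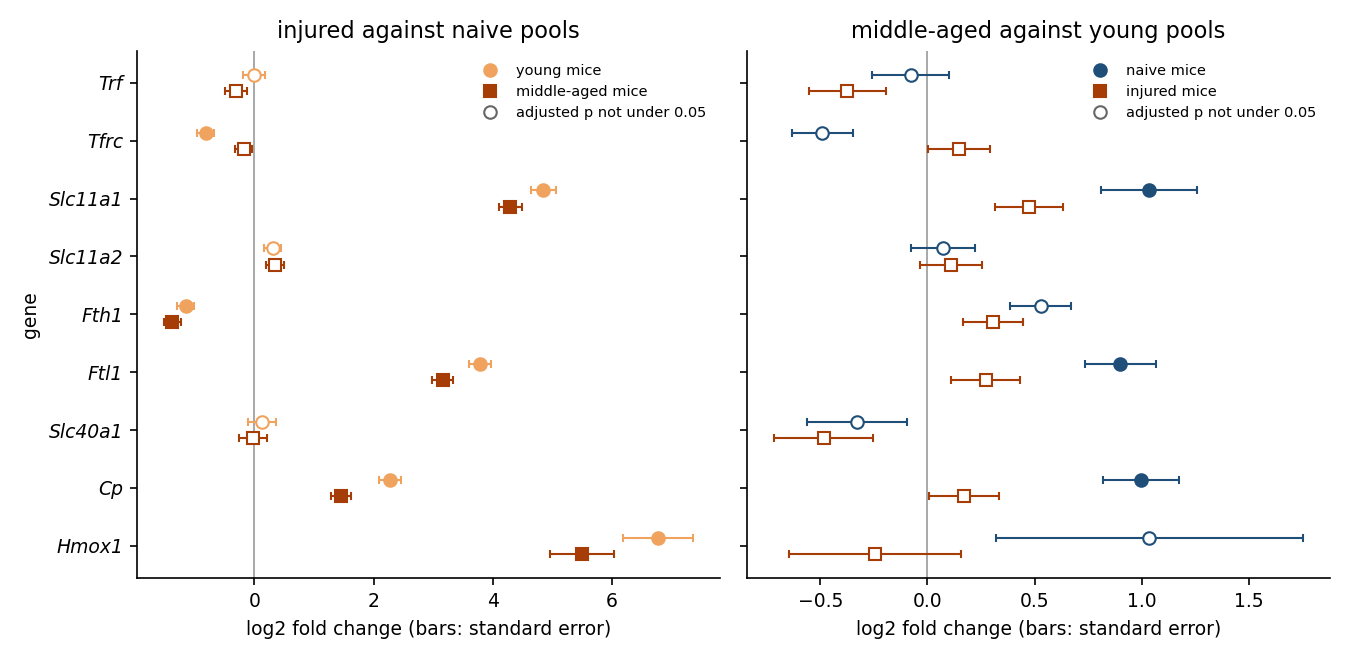
Log2 fold changes of the 9 tested genes from edgeR with their standard errors, for injured against naïve pools at each age (left) and for middle-aged against young pools in each condition (right); filled symbols have an adjusted p under 0.05. At left the changes run from -1.37 (Fth1, middle-aged) to 6.78 (Hmox1, young), and at right Slc11a1, Ftl1 and Cp are filled in naïve mice only.

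The 3 genes that were higher in middle-aged than in young naïve tissue also rose with injury at both ages. How often this held among all tested genes higher with age was not computed. The age differences were those of Ftl1 (1.87-fold), Cp (2.0-fold) and Slc11a1 (2.05-fold). Hmox1 had a similar value in naïve mice, 2.05-fold, but its pools overlapped and it did not pass (log2 fold change 1.04, SE 0.72, edgeR adjusted p = 0.476). Other measures moved with age in the same naïve pools. The 5 markers of recruited monocytes and macrophages summed to 17.9 to 23.98 CPM in young and 80.3 to 109 CPM in middle-aged naïve pools. Lyz2 gave nearly all of these sums, at 17.6 to 23.7 and 79.9 to 107 CPM. Ccr2 and Plac8 were at 0 in the young and Plac8 in the middle-aged pools, where Ccr2 had 1 to 11 counts. Ly6c2 and Ms4a7 had 0 to 5 counts per naïve pool. The 4 microglia markers summed to 124 to 161 CPM in young and 166 to 301 CPM in middle-aged naïve pools. The highest sum was that of middle-aged naïve replicate 2, where Tmem119 was at 193 CPM, against 43.6 and 64.6 in replicates 1 and 3. P2ry12 (29.5 to 40.6 against 29.4 to 43.4 CPM) and Sall1 (49.7 to 81.4 against 44.0 to 80.2) overlapped between ages. Tmem119 and Siglech did not. Of the 4, 1 was called higher with age, where 2.02% of all tested genes were. The mitochondrial share was 10.54% to 13.24% in young and 14.75% to 15.97% in middle-aged naïve pools. The part of these shifts in the age differences was not tested. The comparisons of age and of injury in young mice share the young naïve pools, so their directions are not independent of each other. In injured tissue the log2 differences between ages ran from -0.49 (Slc40a1) to 0.47 (Slc11a1) and none passed.

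The genes most like each of these across the 12 pools were taken by Pearson's r of log2 CPM among 13085 genes; with 4 groups that lie far apart, a high r mostly restates the order of the groups, and no p is given. For Slc11a1 they were Mpeg1 (0.9985), Capg (0.998) and Tlr7 (0.998), and for Ftl1 they were Cyth4 (0.998), Ptpn6 (0.997) and C1qb (0.997). Mpeg1, Tlr7, Ptpn6 and C1qb are known for their expression in macrophages or other immune cells. For Hmox1 they were Pxdc1 (0.990), Hk2 (0.989) and Abca1 (0.988), and for Cp they were Dennd4c (0.991), Xlr (0.985) and Lgals3 (0.985). For Fth1 they were Slu7 (0.986), Gng11 (0.982) and Setd3 (0.982), for Tfrc Dtwd2 (0.960), Ddhd2 (0.960) and Fam84a (0.950), and for Slc11a2 Srp72 (0.967), Phrf1 (0.962) and Gspt1 (0.959). The values were lower for Slc40a1, with Gltp (0.881), Cdh2 (0.860) and Tle4 (0.791), and for Trf, with Fdxr (0.814), Nkx2-2 (0.805) and Taf9b (0.797).

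Around these 10 genes, 59 other genes of iron and heme handling were listed by role, and 47 passed the filter. With injury 19 rose and 11 fell in young mice, and 17 rose and 12 fell in middle-aged mice, beside the backgrounds given above. Their median log2 fold change was 0.25 in young and 0.31 in middle-aged mice. Between ages 2 were higher in naïve mice, Hfe (log2 fold change 0.74, edgeR adjusted p = 0.0413) and Ppox (0.79, adjusted p = 0.0458), where 2.02% of all tested genes were higher. Neither call held with only the naïve pools in the fit (edgeR adjusted p = 0.284 and 0.256) or with the replicate block (0.0645 and 0.0553). Leaving out 1 pool also lost the Hfe call for every pool except middle-aged naïve replicate 2 and young naïve replicate 3, and the Ppox call for every pool except middle-aged naïve replicate 1. In the wider list 0 genes differed between ages in injured mice or in the effect of injury by edgeR, beside 1.15% and 0.139% of all tested genes; at an unadjusted p under 0.05 there were 8 and 6.

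Among 9 tested genes of iron uptake and reduction, 7 were called higher and 1 lower in young mice, where 28.3% and 26.3% of all tested genes were, and 6 higher and 1 lower in middle-aged mice, where 29.2% and 29.3% were. Lcn2, a secreted protein that binds iron-carrying siderophores, was at 0.46, 2.18 and 0.11 CPM in young naïve and 13.1, 27.4 and 22.7 in young injured pools, and at 0.48, 0.0 and 1.12 in middle-aged naïve and 16.02, 31.2 and 33.8 in middle-aged injured pools. The log2 fold change of Lcn2 was 4.46 (SE 0.65, edgeR adjusted p = 4.53e-05) in young and 5.53 (SE 0.70, adjusted p = 9.67e-06) in middle-aged mice. Steap4, which reduces iron and copper at membranes, rose by 4.12 (SE 0.61) and 3.12 (SE 0.55) on the log2 scale. Both moved by over 1.5-fold with 1 naïve pool: without young naïve replicate 2 the young values were 6.11 for Lcn2 and 5.04 for Steap4, without middle-aged naïve replicate 3 the middle-aged value of Lcn2 was 6.70, and without middle-aged naïve replicate 1 that of Steap4 was 4.02, all as log2 fold changes that passed. Steap1 of the same family had 0 to 4 counts in young naïve and 1 count in every middle-aged naïve pool, against 17 in each young injured and 9 to 24 in middle-aged injured pools. It passed at both ages (edgeR adjusted p = 0.00492 and 0.000744), and against the floor of 3 counts per library it was at least 4.08-fold higher with injury in middle-aged mice. Steap3, which reduces iron in the transferrin compartment so that Slc11a2 can move it, rose by 2.51 (SE 0.26, edgeR adjusted p = 1.83e-06) in young and 2.74 (SE 0.27, adjusted p = 7.21e-07) in middle-aged mice. The calls of the genes called lower were not stable when a pool was left out. Steap2 was at 51.8, 24.4 and 17.3 CPM in young naïve and 15.9, 14.4 and 18.4 CPM in young injured pools, which overlapped, with a log2 fold change of -0.94 (SE 0.33, edgeR adjusted p = 0.0258). That call was lost without young naïve replicate 1 (-0.36, adjusted p = 0.276) and without young injured replicate 1 or 2 (adjusted p = 0.0692 and 0.0859). Cybrd1 had a log2 fold change of -1.08 (SE 0.35) in middle-aged mice, and its call was lost without injured replicate 1 or 2 (edgeR adjusted p = 0.0667 and 0.0773).

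Among genes that take up heme and hemoglobin, Hp and Lrp1 rose at both ages and Slc48a1 fell. Hp, or haptoglobin, which binds free hemoglobin, had 0 or 1 counts in every naïve pool, 9 to 17 in young injured and 20 to 41 in middle-aged injured pools. Against the floor of 3 counts per library, Hp was at least 2.97-fold higher with injury in young and at least 7.14-fold higher in middle-aged mice (edgeR adjusted p = 0.000782 and 4.31e-05). Lrp1, a receptor for the complex of heme and hemopexin among many ligands, rose by 1.83 (SE 0.19) and 1.94 (SE 0.19) on the log2 scale. Slc48a1, which carries heme out of lysosomes, fell by 1.47 (SE 0.14) and 1.61 (SE 0.15). Cd163, the macrophage receptor for haptoglobin with hemoglobin, was at 0.32 to 2.46 CPM in naïve and 1.24 to 3.40 CPM in injured pools and did not pass at either age (edgeR adjusted p = 0.755 and 0.0774).

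Heme breakdown and synthesis were each split. Blvra, the biliverdin reductase that acts after heme oxygenase, was at 17.2 to 24.7 CPM in naïve, 42.3 to 49.1 in young injured and 60.1 to 60.7 in middle-aged injured pools, and its log2 fold changes were 1.104 (SE 0.16) and 1.52 (SE 0.16), both past the threshold. The second reductase, Blvrb, was at 1.54 to 3.78 CPM in naïve and 2.72 to 4.52 CPM in injured pools and did not pass (edgeR adjusted p = 0.157 and 0.236). Flvcr1, a heme exporter, rose by 1.63 (SE 0.15) and 2.16 (SE 0.15), and Hmox2, the constitutive heme oxygenase, fell by 0.58 (SE 0.12) and 0.41 (SE 0.12), the middle-aged call being lost without middle-aged injured replicate 3 (edgeR adjusted p = 0.0628). Of 8 tested genes of heme synthesis, 2 rose at each age, and 4 fell in young and 5 in middle-aged mice, beside the same shares of all tested genes (28.3% higher and 26.3% lower in young, 29.2% and 29.3% in middle-aged mice). Alas1, the first and rate-limiting step in most tissues, rose by 1.22 (SE 0.17) and 1.59 (SE 0.17). Cpox, a late step, fell by 2.04 (SE 0.14) and 2.13 (SE 0.14). At each age, some other genes of heme synthesis called lower lost the call when a pool was left out.

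**Figure D4:**
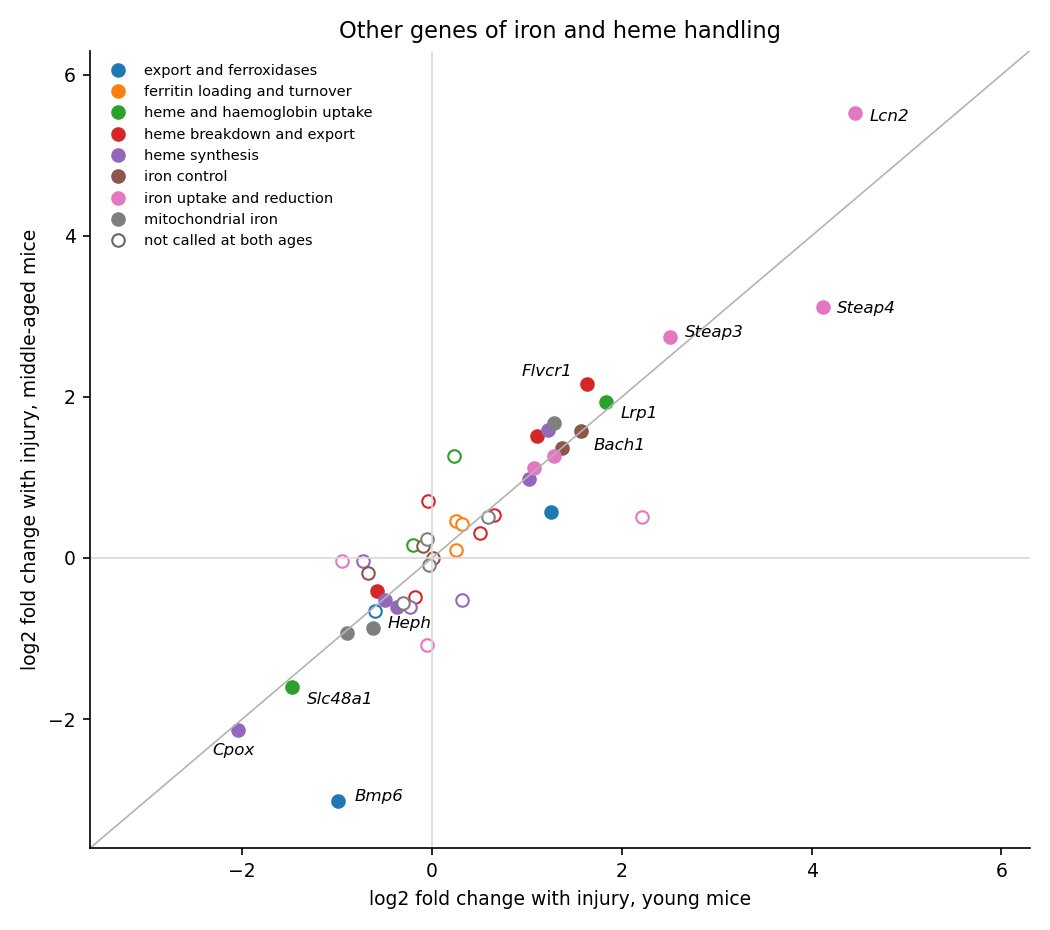
Log2 fold change with injury in young (horizontal) against middle-aged mice (vertical) for 45 tested genes of the wider iron and heme list, coloured by role; filled symbols have an edgeR adjusted p under 0.05 at both ages, and the line marks equal change. Hp and Steap1, at or under 3 counts in every pool of a naïve group, are left out; Lcn2 (4.46 and 5.53) and Steap4 (4.12 and 3.12) lie farthest up and to the right, and Bmp6 (-0.99 and -3.02) lies lowest.

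Among 5 tested controllers, the transcription factors Bach1 and Nfe2l2 rose, Fbxl5 fell in young mice and Aco1 and Ireb2 did not pass the test at either age. Spic, another transcription factor on the list, had 1 to 9 counts per pool and was not tested. Bach1, a heme-sensing repressor of Hmox1, was at 28.6 to 42.8 CPM in naïve and 95.6 to 119 CPM in injured pools, with log2 fold changes of 1.57 (SE 0.14, edgeR adjusted p = 2.51e-07) in young and 1.57 (SE 0.13, adjusted p = 1.95e-07) in middle-aged mice. Nfe2l2, the activator that Bach1 opposes at the same genes, rose by 1.38 (SE 0.15) and 1.36 (SE 0.15). Aco1 and Ireb2 encode the iron regulatory proteins. Aco1 had log2 fold changes of 0.01 (SE 0.22) and 0.01 (SE 0.22), and Ireb2 of -0.09 (SE 0.12) and 0.14 (SE 0.12), with edgeR adjusted p of 0.338 or more. Fbxl5, which marks Ireb2 protein for decay when iron is plentiful, was at 102 to 122 CPM in young naïve and 67.8 to 70.9 CPM in young injured pools and fell by 0.68 (SE 0.11, edgeR adjusted p = 8.39e-05), while in middle-aged mice the log2 fold change was -0.19 (SE 0.11, adjusted p = 0.141).

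For export, hepcidin (Hamp), the hormone that removes ferroportin from the cell surface, had 0 counts in all 12 pools. Bmp6, which drives hepcidin in the liver, fell by 0.99 (SE 0.29) in young mice and by 3.02 (SE 0.32) in middle-aged mice, both as log2 values. Bmp6 was at 16.9 to 28.1 CPM in young naïve and 7.08 to 16.4 in young injured pools, and at 32.1 to 52.99 in middle-aged naïve and 4.55 to 5.40 in middle-aged injured pools. Hfe, which modifies the transferrin receptor and hepcidin, rose by 1.25 (SE 0.18) and 0.57 (SE 0.18), the middle-aged call being lost without middle-aged injured replicate 2 (edgeR adjusted p = 0.0538). Heph, the other membrane ferroxidase, was at 4.62 to 12.6 CPM in naïve and 3.59 to 7.98 CPM in injured pools, so that the groups overlapped, and did not pass (edgeR adjusted p = 0.125 and 0.0952). Ncoa4, which delivers ferritin to lysosomes for release of its iron, had log2 fold changes of 0.32 (SE 0.18) and 0.42 (SE 0.18) and did not pass (edgeR adjusted p = 0.154 and 0.0596). Of the genes that load ferritin, Pcbp1 rose in middle-aged mice by 0.46 (SE 0.13). Pcbp2 had a log2 fold change of 0.25 (SE 0.10, edgeR adjusted p = 0.0448) in young mice, a call that was lost without any of the young naïve pools, young injured replicate 1 or 3, middle-aged naïve replicate 3 or middle-aged injured replicate 1 or 3 (adjusted p = 0.0517 to 0.158). Of 7 mitochondrial iron genes, the importer Slc25a37 rose by 1.29 (SE 0.23) and 1.68 (SE 0.23), and Glrx5, which helps to build iron-sulfur clusters, fell by 0.90 and 0.94, the young call being lost without young naïve replicate 1 or young injured replicate 2 (edgeR adjusted p = 0.0592 and 0.0528).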

How the data were processed

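RNA of laser-captured white matter was amplified and sequenced (12 libraries, NextSeq500). The authors checked reads with FastQC 0.11.4, aligned them with TopHat 2.0.10 over bowtie 1.1.2 (genome GRCm38) and deposited raw counts per gene from featureCounts; the annotation release, the strand setting and the handling of shared reads are not given in the sources used here. Groups and replicate numbers came from the sample titles. From the deposited counts, edgeR 4.0.16 in R 4.3.3 (TMM, filterByExpr, glmQLFit and glmQLFTest) fitted 1 coefficient per group over 12 pools with no covariates, with Benjamini-Hochberg adjustment of the p-values across 15866 genes. The SE is the log2 fold change over the square root of F, and intervals are 1.96 SE. Log2 ratios of counts, with 0.5 added to each, were tested by 2-sided exact permutation. The steps were tested on simulated counts. The 10 genes, the 59 further genes and the marker lists were chosen with earlier results of these data known. All 10 genes were named, and of the wider list, per comparison and role, up to 2 called genes with the largest change, and direct partners whether called or not; Steap2, Cybrd1, Slc48a1 and Hmox2 fall outside that rule and were named after their values were seen. The result for 1 further gene of the list is not given. Alternatives were 4 other scalings, 2 other filters, DESeq2 1.42.0, a replicate block, only the pools compared, a minimum fold change and each pool left out.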

Additional observations from a re-analysis of the deposited data

Results flagged for a closer look

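Groups of 3 pools were too small to test a single pool against the rest of its group. Of the marker genes set beside the iron and heme genes, the effect of injury on Lyz2, a lysozyme of macrophages that gave most of the counts of the recruited monocyte list, differed between ages, by -1.89 on the log2 scale (SE 0.21, adjusted p = 0.00275 from edgeR's interaction test). Lyz2 stood at 17.6 to 23.7 CPM in young naïve, 79.9 to 107 in middle-aged naïve, 5596 to 7125 in young injured and 7125 to 7685 in middle-aged injured pools, so the difference came with the higher level in middle-aged naïve pools. For none of the 9 tested iron and heme genes did the interaction pass (3 had an unadjusted p under 0.05), nor for any of the 47 of the wider list (6 had an unadjusted p under 0.05).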

How the results depend on the processing

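Of 936 single values of the 9 tested genes recomputed under the alternatives, 894 kept their direction and their side of the threshold, 6 lost the call, 17 gained one and 19 changed sign. All calls of injury on Hmox1, Slc11a1, Ftl1, Cp and Fth1 at both ages, and on Tfrc in young mice, held under every setting run, except that Tfrc lies under a log2 fold change of 1 where that was also required. Scaling by library totals alone moved the median log2 fold change of all tested genes with injury to 0.20 in young and 0.08 in middle-aged mice, from 0.0005 and -0.03, and the difference of injury effects to -0.13 from -0.05, and single values under it move by that much.

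The calls of age in naïve mice were the least stable. Of the 9 genes 5 were called with all genes of at least 1 count or with DESeq2, which added Fth1 and Tfrc to Ftl1, Slc11a1 and Cp, and 1 when the injured pools were kept out of the model (Ftl1) or with a log2 fold change of at least 1 also required (Slc11a1). In injured mice 1 (Slc11a1) was called when the naïve pools were kept out of the model. Of the wider list, 19 in young and 18 in middle-aged mice changed with injury when a log2 fold change of at least 1 was also required. Its count of age in naïve mice was 0 with the replicate block, with only the pools compared and with the minimum fold change, and ran from 0 to 2 when a pool was left out. In injured mice it was 1 with library totals alone and with all genes of at least 1 count, 2 with DESeq2, 3 with only the pools compared and 0 to 2 when a pool was left out. Its count for the difference of injury effects was 1 with all genes of at least 1 count and 2 with DESeq2. The cause of these changes was not tested.

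The values that changed sign were close to 0 or rested on 1 pool. For Hmox1 the log2 difference between ages in injured mice was 0.025 with the replicate block and -0.58 to 0.71 when a pool was left out. For Slc40a1, injury in middle-aged mice was 0.081 with library totals alone and -0.15 to 0.045 when a pool was left out, injury in young mice -0.27 to 0.31, and the difference of the effects -0.33 to 0.24. For Trf, injury in young mice was 0.0014 with DESeq2 size factors, 0.19 with library totals alone, 0.0037 with DESeq2 and -0.14 to 0.19 when a pool was left out, and age in naïve mice was -0.21 to 0.12. For Slc11a2, age in naïve mice was -0.064 to 0.20 when a pool was left out, and the difference of injury effects was -0.045 with library totals alone and -0.089 to 0.17 when a pool was left out. The log2 ratio of Slc40a1 to Tfrc over both ages ran from 0.33 to 0.59 when a pool was left out, and its exact p then reached 0.09.

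The replicate numbers were taken only to name the pools, which held other mice. Deviations of same-numbered pools from their group means correlated at -0.113 to 0.153, beside -0.174 to 0.172 for pools of different number. Some pools did correlate best with their own number, such as replicate 2 of the middle-aged naïve and injured groups (0.153), and others did not. With the number as a block, 6 of the 9 genes were called with injury in young mice, 5 in middle-aged mice, 3 with age in naïve mice and 0 with age in injured mice, and of the wider list 28 and 30 were called with injury. Depth limits Hpx, with 0 to 6 counts per pool, and the naïve levels of Hmox1 and Slc11a1, with 11 to 68.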
